A study of Mus musculus with 6 samples.

Results

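The acyl-CoA thioesterases (Acot genes) were followed in liver RNA of wild type and Atp7b-/- mice. The members are 10 genes taken by symbol: Acot1, Acot2, Acot3, Acot4, Acot6, Acot7, Acot8, Acot9, Acot12 and Acot13. All 10 were found among the 41388 gene identifiers of the count table, and all 10 passed the filter on low counts. The family was selected after Acot1 and Acot2 had been seen to be lower in Atp7b-/- liver. Its genotype differences are therefore given as a description. Where members past a threshold are counted in that contrast, the count repeats the selection and supports nothing. Results are read from tests only for contrasts that the selection did not use and for genes outside the family.

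Acyl-CoA thioesterases cleave fatty acyl-CoA esters to the free acid and coenzyme A, and so set the balance between activated and free fatty acids in each compartment. The type I enzymes (Acot1 to Acot6) have an alpha/beta-hydrolase fold and lie side by side in the genome. The type II enzymes (Acot7 and higher numbers) have a hotdog fold and are scattered. In rodent liver Acot1 is a textbook target of the fatty acid sensor PPAR alpha, and several members rise with fasting or peroxisome proliferators. Atp7b is the copper-exporting ATPase of hepatocytes, whose loss is the genetic basis of Wilson disease and leaves copper in the liver.

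The 6 libraries compared were 3 from wild type mice (WT1 to WT3) and 3 from Atp7b-/- mice (KO1 to KO3), all 6 weeks old, on a mixed C57BL x 129S6/SvEv background and on chow with 16 ppm copper. The knockout is constitutive and not limited to 1 cell type. WT1 and KO3 were sequenced in pairs of 54-base reads (paired-end) and the other 4 libraries as single 54-base reads (single-end). The labels give WT1, KO1 and KO2 as male and WT2, WT3 and KO3 as female. They do not say that the libraries came from separate animals, so each p-value reflects only how far these libraries spread, part of which may be technical.

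Total counts lay between 5919389 (WT3) and 25973968 (KO3). Mitochondrially encoded genes took 2.57% and 2.5% of the counts in the single-end wild type libraries and 4.15% and 4.09% in the single-end Atp7b-/- ones. In the paired-end libraries they took 7.74% (WT1) and 8.14% (KO3), and the part of this difference in the values below was not tested. Values are CPM, counts divided by the library size after scaling with TMM factors, which correct for differences in RNA composition. The targeted gene, Atp7b, was at 25.3, 85.2 and 59.7 CPM in WT1 to WT3 and at 19.2, 13.7 and 13.3 CPM in KO1 to KO3, so counts remained in the knockout but lay below each wild type library. The labelled sex was checked with Xist, the non-coding RNA of the inactive X chromosome, and with Y-linked genes. Xist stood at 371 CPM in WT2, at 17.4 in WT3 and between 0.117 and 1.01 in the other 4. The Y-linked Eif2s3y stood at 0.17 CPM in WT2 and between 24.3 and 110 CPM in the other 5. The libraries labelled female therefore included 2, WT3 and KO3, with Y-linked RNA, and WT3 held both kinds. Hepatocyte marker RNA (8 genes such as Alb and Ttr) summed to between 83560 and 107872 CPM in wild type libraries and to between 58888 and 70493 CPM in Atp7b-/- libraries. Alb was the largest of the 8 in each library. It measured 77711, 66914 and 42891 CPM in WT1 to WT3 and 27654, 37197 and 49860 CPM in KO1 to KO3, which overlapped. All 8 genes had a negative log2 difference, but in 0 of the 8 did all Atp7b-/- libraries lie below all wild type ones. The gap was thus one of the sum and not of any single gene. None of the 8 passed edgeR's test, with 1, Alb, at an unadjusted p under 0.05 and 0 called by DESeq2. In bulk tissue fewer hepatocytes and less RNA per hepatocyte cannot be told apart, and the part of this shift in the values below was not tested.

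The 5 type I members form 1 cluster on the plus strand of chromosome 12 (build GRCm38, GENCODE M21). Acot2 (ENSMUSG00000021226) lies at chr12:83987861-83993873 and Acot1 (ENSMUSG00000072949) at chr12:84009490-84018371. Acot4 follows at chr12:84038379-84048601, Acot3 at chr12:84052144-84060402 and Acot6 at chr12:84100654-84111349. Acot1 and Acot2 are close copies: their coding sequences were 95.2% identical over 1239 aligned bases, and the Acot2 protein, which carries a mitochondrial leader, has 453 residues against 419 for Acot1. Acot1 was 83.9% identical to Acot3, 76.6% to Acot4 and 75.3% to Acot6. The type II members Acot7, Acot8, Acot9, Acot12 and Acot13 matched Acot1 at 55.5% to 60.5% of aligned coding bases.

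A read of 54 bases can name Acot1 or Acot2 only where the copies differ. Of 1080 aligned windows of that length within 1 exon, 405 were identical in the pair. The lines below show 1 identical window, in exon 1 (chr12:84009703-84009756 in Acot1, chr12:83988218-83988271 in Acot2), and the window with the most differences, 12, in exon 3 (chr12:84016945-84016998 in Acot1, chr12:83992667-83992720 in Acot2). All are coding, on the plus strand, and capitals mark the bases that differ between the copies.
Acot1, identical window: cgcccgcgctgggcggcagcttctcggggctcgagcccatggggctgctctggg
Acot2, identical window: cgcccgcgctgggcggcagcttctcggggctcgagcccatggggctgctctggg
Acot1, most different window: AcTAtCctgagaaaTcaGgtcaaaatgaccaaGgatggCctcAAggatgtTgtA
Acot2, most different window: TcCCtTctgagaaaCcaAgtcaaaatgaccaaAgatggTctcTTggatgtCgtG
Over the whole transcribed exons, 18.2% of the 54-base windows of Acot1 and 26.6% of those of Acot2 also occurred in a GENCODE transcript of another gene in the count table. Transcripts of genes outside that table, and matches outside annotated transcripts, were not searched. For Acot1, 13.1% of windows were shared with Acot2, and for Acot2, 23.8% were shared with Acot1. Most windows thus matched 1 gene of the count table. No source used here states how the authors counted reads with several matches, so the split between these copies is uncertain.

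The promoters of the close copies were far less alike. RefSeq (build GRCm38.p6) gave promoters for 8 of the 10 members. Over 262 aligned bases of the 300-base promoters, Acot1 and Acot2 were 56.5% identical, within the 52.1% to 69.2% of all member pairs. The 250 bases before the RefSeq start of Acot1 (chr12:84009252-84009501), Acot2 (chr12:83987611-83987860) and Acot4 (chr12:84038129-84038378) are printed on the plus strand. For Acot1 the RefSeq start lies downstream of the GENCODE one, so the last bases printed fall within the GENCODE gene. Acot1 and Acot2 are shown because they were low together, and Acot4 because it lies beside them and holds 2 of the motifs searched, in capitals (CACGTG, and TGACCT, the reverse strand of AGGTCA).
Acot1 promoter: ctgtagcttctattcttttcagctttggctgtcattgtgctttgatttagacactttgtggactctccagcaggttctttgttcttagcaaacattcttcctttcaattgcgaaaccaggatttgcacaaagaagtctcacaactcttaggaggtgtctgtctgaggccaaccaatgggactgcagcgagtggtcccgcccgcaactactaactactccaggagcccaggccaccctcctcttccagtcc
Acot2 promoter: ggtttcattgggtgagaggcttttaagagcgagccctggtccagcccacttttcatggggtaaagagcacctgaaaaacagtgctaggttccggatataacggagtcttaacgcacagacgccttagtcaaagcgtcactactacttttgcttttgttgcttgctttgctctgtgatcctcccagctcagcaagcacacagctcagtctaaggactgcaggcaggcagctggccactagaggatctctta
Acot4 promoter: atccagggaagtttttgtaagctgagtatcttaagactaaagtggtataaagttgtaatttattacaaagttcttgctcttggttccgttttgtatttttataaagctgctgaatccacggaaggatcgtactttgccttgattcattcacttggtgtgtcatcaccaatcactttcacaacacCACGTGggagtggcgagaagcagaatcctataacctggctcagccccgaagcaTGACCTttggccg
Both strands of the 300 bases were searched for the nuclear receptor half-site AGGTCA, for its direct repeat with 1 base between (the PPAR response element, which contains the half-site), for the E-box CACGTG bound by clock proteins and for the D-box TTATGTAA bound by Hlf, Dbp and Tef. The half-site was found in Acot3, Acot4 and Acot12 and the E-box in Acot4, as descriptions of these letters only. Among 32851 promoters of the same length, 16.3% held the half-site, 0.04% the direct repeat, 7.15% the E-box and 0.938% the D-box. Acot1 and Acot2 held none of the 4 motifs in this window.

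Acot1, the cytosolic long-chain enzyme, was low in each Atp7b-/- library. It measured 7.08, 31.5 and 37.6 CPM in WT1 to WT3 and 3.56, 6.45 and 2.41 CPM in KO1 to KO3. The groups did not overlap, but WT1, which is paired-end, lay close to KO2. The mean was 25.4 ± 16.2 CPM in wild type liver, against 4.14 ± 2.08 CPM in Atp7b-/- liver (SD, n = 3 each). The fitted log2 difference, Atp7b-/- minus wild type with layout as a term, was -2.40 (SE 0.35), a 5.27-fold lower level. Within the single-end libraries the log2 difference was -2.81, and between the paired-end libraries, 1 of each genotype, it was -1.51.

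Acot2, the mitochondrial matrix counterpart of Acot1, showed the same order of groups at a lower level. It measured 2.01, 15.8 and 9.08 CPM in WT1 to WT3 and 1.28, 0.982 and 0.517 CPM in KO1 to KO3. Again no Atp7b-/- library reached a wild type one, and WT1 was again the lowest wild type library. The Atp7b-/- values rest on 22, 7 and 15 counts, against 44, 186 and 49 in wild type. The mean was 8.97 ± 6.90 CPM in wild type liver, against 0.927 ± 0.386 CPM in Atp7b-/- liver (SD, n = 3 each). The fitted log2 difference was -2.95 (SE 0.44), a 7.72-fold lower level, with -3.27 within single-end and -1.73 between paired-end libraries. Since the copies share sequence, their counts were also summed: 9.10, 47.3 and 46.7 CPM in WT1 to WT3 and 4.84, 7.44 and 2.93 CPM in KO1 to KO3. The summed log2 difference was -2.52. The ratio of Acot1 to Acot2 counts ran from 1.99 to 4.14 in wild type and from 2.77 to 6.57 in Atp7b-/- libraries, so it overlapped between genotypes.

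**Figure D1:**
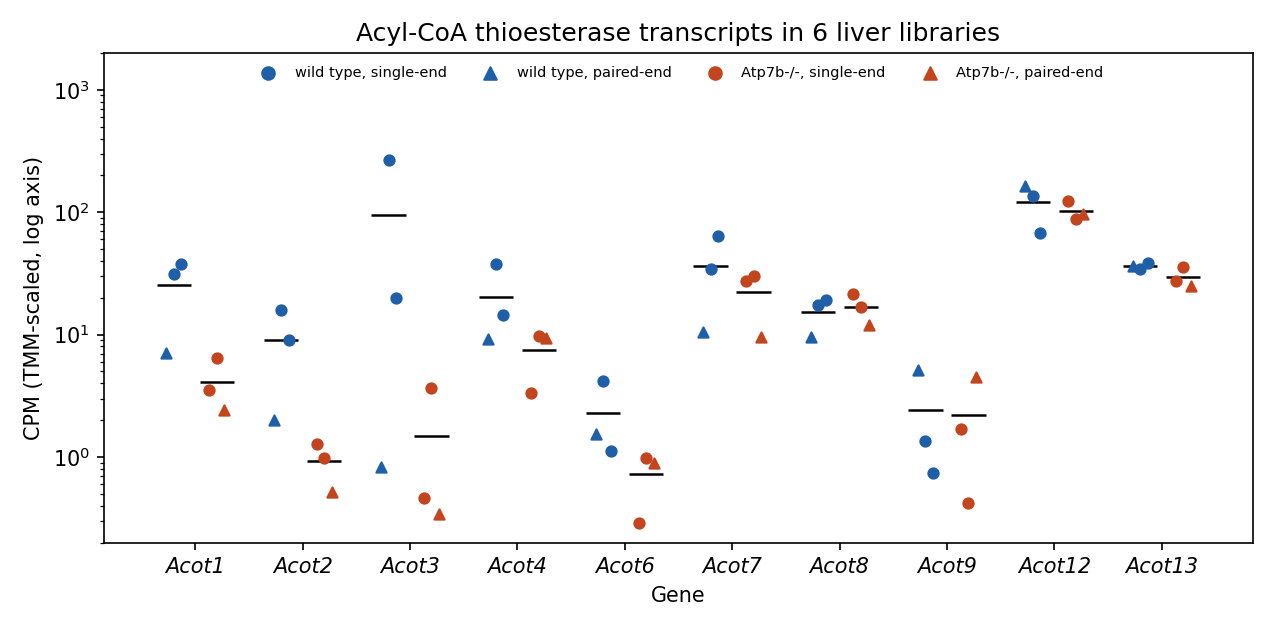
CPM of each of the 10 members (log axis) in the 3 wild type (blue) and 3 Atp7b-/- (orange) libraries; circles are single-end, triangles paired-end, and black bars are group means. Acot1 and Acot2 separate by genotype without overlap, and the Acot3 mean of wild type is set by WT2 at 267 CPM.

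Of the peroxisomal members of the cluster, Acot3 varied far more between libraries than between genotypes. Acot3, a long-chain thioesterase of peroxisomes, measured 0.823, 267 and 19.8 CPM in WT1 to WT3 and 0.466, 3.65 and 0.344 CPM in KO1 to KO3. WT2 held most of the signal, and WT1 lay below KO2, so the groups overlapped. The log2 difference was -5.36 with an SE of 2.14, and -2.72 without WT2. Acot4, which cleaves succinyl-CoA and other dicarboxylyl-CoAs, measured 9.23, 37.6 and 14.5 CPM in WT1 to WT3 and 3.32, 9.68 and 9.47 CPM in KO1 to KO3. WT2 was again highest and the groups overlapped at the level of WT1. Its log2 difference was -1.35 (SE 0.71), -0.64 without WT2, and 0.04 between the paired-end libraries. Acot6, an enzyme for branched-chain acyl-CoAs, was scarce, at 1.55, 4.16 and 1.11 CPM in wild type libraries, against 0.291, 0.982 and 0.895 CPM in the Atp7b-/- ones. The groups did not overlap, yet the values of WT3, KO1 and KO2 rest on 6, 5 and 7 counts. Its log2 difference was -1.69 (SE 0.67) and -0.87 without WT2.

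**Figure D2:**
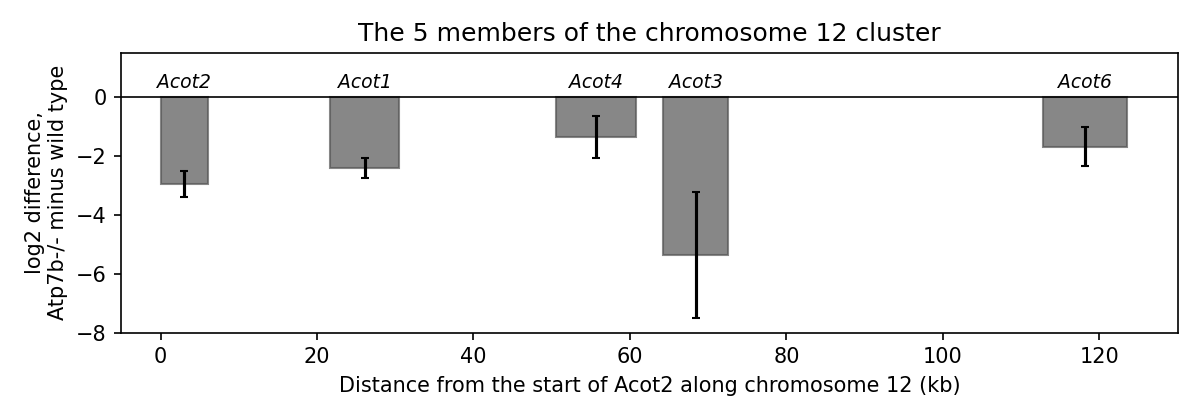
The 5 members of the chromosome 12 cluster drawn to scale by distance from the start of Acot2 (kb), with bar height and error bar giving the fitted log2 difference, Atp7b-/- minus wild type, and its SE. All 5 lie below 0, and the SE of Acot3 (2.14) is several times that of Acot1 (0.35).

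WT2, the library with the highest Acot3 and Acot4, was also the one with Xist and without Y-linked RNA. WT2 and WT3 were thus the highest and second highest libraries for both Acot3 and Xist. Sult2a1, a female-biased sulfotransferase, was at 33.7 CPM in WT2, 1.48 in WT3 and at most 0.14 in the other 4. Of the 8 male-biased genes WT2 was the lowest library for each, such as the urinary protein gene Mup20 at 1.87 CPM against 26.1 to 1506 CPM in the other 5. WT3 had no fixed place: it was second lowest for Mup20 but highest for the cytochrome Cyp2d9, at 1462 CPM. The 8 genes all had positive log2 differences (median 0.73). Of these 8 genes 0 were called by edgeR or DESeq2 or had an unadjusted p under 0.05. No Atp7b-/- library had the Xist level of WT2, so for the high Acot3 and Acot4 of that library sex and genotype cannot be told apart. Among the libraries labelled male, Acot3 in WT1 (0.823 CPM) lay between KO1 (0.466 CPM) and KO2 (3.65 CPM). In Acot1 WT3 was above WT2, while in Acot2 WT2 was the highest library and WT3 the second, as in Acot3. The 2 libraries with the most Xist were thus also the 2 highest for Acot1 and for Acot2. For these 2 genes, too, sex and genotype cannot be fully told apart. WT1, the wild type library with Y-linked RNA and little Xist, had Acot1 at 7.08 CPM, near KO2 at 6.45 CPM, but differs from KO2 in layout. Without WT2 the log2 differences of Acot1 and Acot2 were -2.37 and -2.54. Without WT3 and KO3, the libraries whose Y-linked RNA went against their label, they were -2.70 and -3.75. That setting leaves Acot3 at -7.29, Acot4 at -2.60 and Acot6 at -2.92, with WT2 as the only single-end wild type library.

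**Figure D3:**
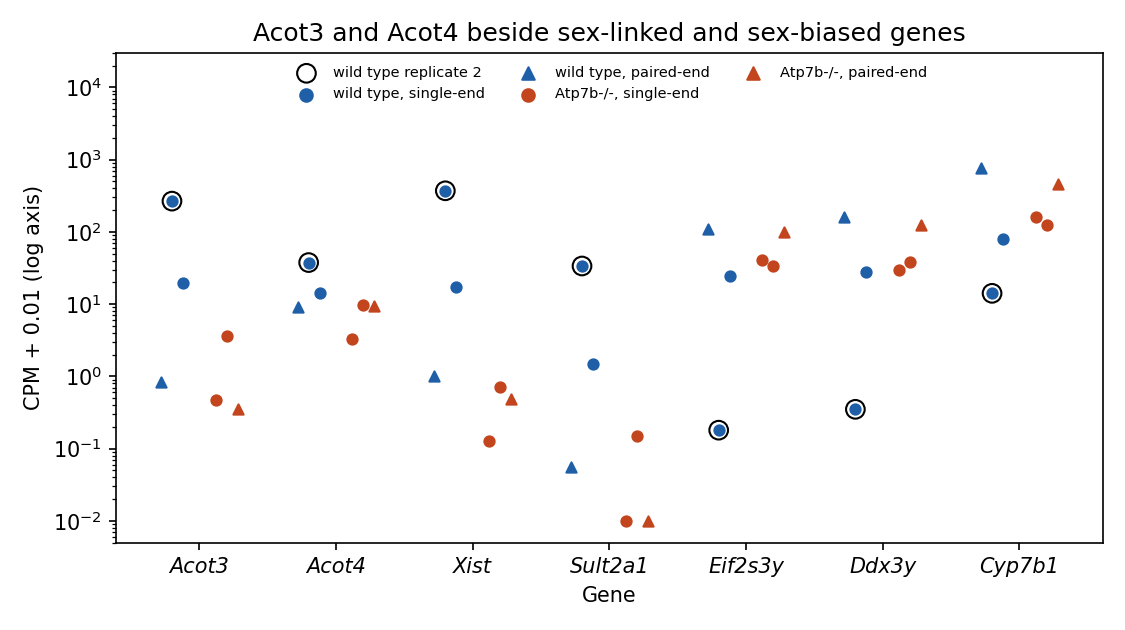
CPM plus 0.01 (log axis) of Acot3 and Acot4 beside Xist, the female-biased Sult2a1, the Y-linked Eif2s3y and Ddx3y and the male-biased Cyp7b1, with colours for genotype and shapes for layout as labelled; WT2 is ringed. WT2 is highest for Acot3 (267 CPM), Acot4 (37.6 CPM), Xist (371 CPM) and Sult2a1 (33.7 CPM) and lowest for Eif2s3y (0.17 CPM).

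The type II members differed little by genotype, and the libraries of the genotypes overlapped for each of the 5. Acot12, the cytosolic acetyl-CoA hydrolase of liver (chr13:91741512-91786148), measured 163, 136 and 67.7 CPM in WT1 to WT3 and 125, 87.5 and 96.4 CPM in KO1 to KO3. Its log2 difference was -0.22 (SE 0.31), with 0.12 within single-end and -0.76 between paired-end libraries. Acot13, a small enzyme associated with mitochondria (chr13:24817948-24831540), was the steadiest, at 36.5, 34.2 and 38.7 CPM in wild type libraries, against 27.4, 35.8 and 25.1 CPM in the Atp7b-/- ones. Its log2 difference was -0.32 (SE 0.20), and KO2 lay inside the wild type range. Acot7, a cytosolic long-chain enzyme best known from brain (chr4:152178134-152271855), measured 10.6, 34.4 and 64.5 CPM in WT1 to WT3 and 27.4, 30.0 and 9.50 CPM in KO1 to KO3. The paired-end libraries were the low ones in both groups, and the log2 difference was -0.57 (SE 0.27), and -0.22 without WT3.

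Acot8, a peroxisomal enzyme of broad chain-length range (chr2:164792765-164804882), was the 1 member with a positive log2 difference, 0.16 (SE 0.21). It measured 9.51, 17.4 and 19.1 CPM in wild type libraries, against 21.3, 16.8 and 12.0 CPM in the Atp7b-/- ones, the paired-end ones again lowest. Acot9, a mitochondrial enzyme on the X chromosome (chrX:155262443-155297654), was scarce, at 5.12, 1.36 and 0.741 CPM in wild type libraries, against 1.69, 0.421 and 4.51 CPM in the Atp7b-/- ones. Here the paired-end libraries were the high ones, and the log2 difference was -0.04 (SE 0.49). Some exons overlap other genes: 246 bases of Acot8 overlap Snx21, and 615 bases of Acot4 and 312 of Acot3 overlap the antisense RNA 4732463B04Rik. In Acot12, 149 bases overlap another antisense RNA, 4833422C13Rik. The protein-coding Gm49366, on the same strand and absent from the count table, overlaps 396 bases of Acot3 and 33 of Acot4. No source used here states the strand setting of the counting, so reads from these partners cannot be told apart. The antisense RNA 4732463B04Rik measured 0.594, 8.24 and 1.67 CPM in WT1 to WT3 and 0.408, 0.982 and 2.58 CPM in KO1 to KO3. It was far below Acot3 in WT2, close to it in WT1 and KO1, and above it in KO3 (Acot3 at 0.344 CPM).

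In count, 9 of the 10 members had a negative log2 difference, beside 50.9% of all 12988 genes tested, and their median was -0.96 beside -0.01. The members past the threshold of the fit (edgeR's quasi-likelihood test, adjusted p under 0.05) were the 2 that the selection started from, Acot1 and Acot2, both lower. Over all genes 2.49% were called in either direction and 0.585% were called lower. The 3 members whose Atp7b-/- libraries all lay below all wild type libraries were Acot1, Acot2 and Acot6, beside 3.28% of all genes. The selection used this contrast, so these counts were fixed by it in part and nothing is read from them.

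**Figure D4:**
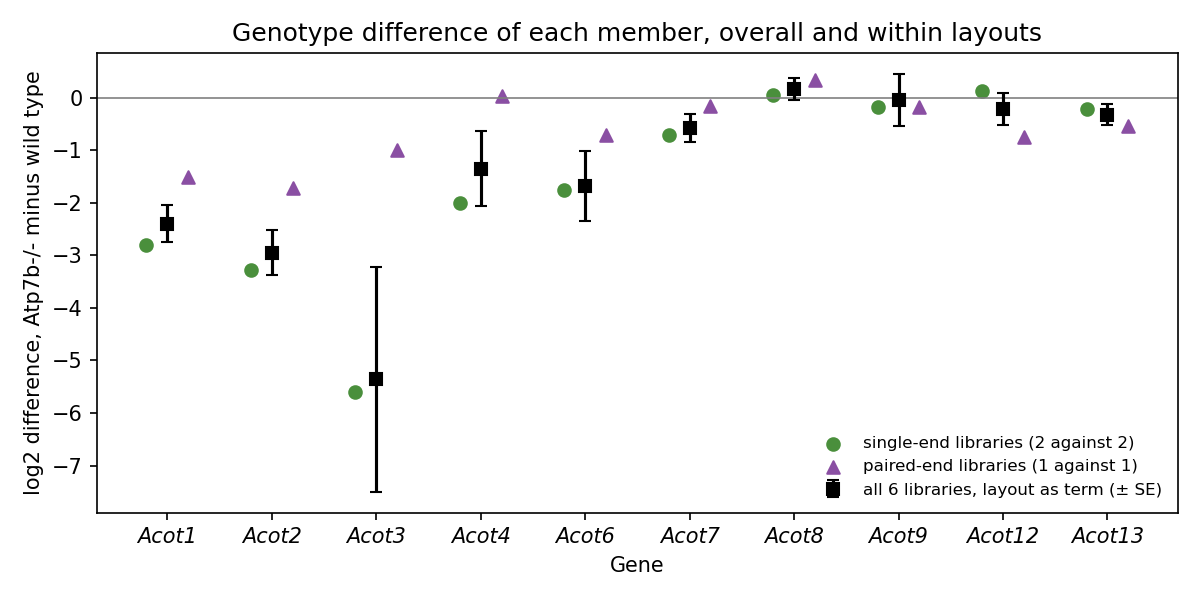
The log2 difference, Atp7b-/- minus wild type, of each member in the fit over 6 libraries (black squares, ± SE), within the 4 single-end libraries (green circles) and between the 2 paired-end libraries (purple triangles). Acot1 and Acot2 lie below 0 in both layouts (-2.81 and -1.51, -3.27 and -1.73), while Acot4 is at 0.04 between the paired-end libraries.

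Layout and its interaction with genotype were not used to select the family and could be tested. By edgeR's quasi-likelihood test 5 of 10 members differed between layouts, close to the 52.8% of all genes that did. Acot1 was lower in the paired-end libraries by a log2 difference of -1.66 (SE 0.38, adjusted p = 0.00622) and Acot2 by -2.01 (SE 0.48, adjusted p = 0.00754). Acot7 stood at -1.89 (SE 0.31, edgeR adjusted p = 0.00115) and Acot8 at -0.80 (SE 0.23, adjusted p = 0.0155), while Acot9 was higher in the paired-end libraries by 2.07 (SE 0.47, adjusted p = 0.00608). Each layout holds both genotypes, and the layout and genotype differences of these genes were not tested against each other. The interaction was called in 0 members (edgeR, with 0 at an unadjusted p under 0.05, and 0 by DESeq2 and by limma-voom), beside 0.0154% of all genes. The test rests on 1 paired-end library of each genotype, so a genotype difference that varied between layouts may have been missed. For Acot1 this interaction was 1.28 (SE 0.60) and for Acot2 1.48 (SE 0.82) on the log2 scale. In this design the labelled sex is the same term as the interaction.

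Levels of different genes were compared per length, as RPKM (CPM divided by exon length in kilobases). In wild type liver the order of means was Acot13 (49.0 ± 3.1 RPKM, SD, n = 3), Acot12 (37.1 ± 14.9), Acot3 (27.9 ± 43.2, with a median of 5.77), Acot7 (17.2 ± 12.7), Acot8 (7.68 ± 2.56), Acot1 (6.48 ± 4.12), Acot2 (4.08 ± 3.14), Acot4 (3.06 ± 2.27), Acot9 (1.06 ± 1.04) and Acot6 (0.355 ± 0.257). No neighbours in that order were apart by more than their SDs. In Atp7b-/- liver Acot13 (39.5 ± 7.6 RPKM, SD, n = 3) and Acot12 (31.2 ± 5.9) stood clear of Acot7 (10.5 ± 5.3) and Acot8 (8.37 ± 2.34). Acot8 in turn stood clear of Acot4 (1.12 ± 0.54), Acot1 (1.06 ± 0.53) and Acot9 (0.971 ± 0.921), which did not separate. Acot3 (0.432 ± 0.545 RPKM), Acot2 (0.422 ± 0.176) and Acot6 (0.113 ± 0.059) came last, and of these only Acot2 and Acot6 were apart by more than their SDs.

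The summed level of the 10 members was 115, 212 and 135 RPKM in WT1 to WT3 and 101, 102 and 78.0 RPKM in KO1 to KO3. Acot3 alone made up 36.6% of the sum in WT2 and 0.129% to 4.28% elsewhere. The chromosome 12 members supplied 3.99% of the sum in WT1, 46.8% in WT2, 16.2% in WT3 and 2.15% to 4.66% in Atp7b-/- libraries. Acot12 and Acot13 together supplied 41.2% to 85.6% in wild type and 73.1% to 80.8% in Atp7b-/- libraries. Grouped by compartment, the mitochondrial members (Acot2, Acot9 and Acot13) summed to 52.2, 53.7 and 56.5 RPKM in WT1 to WT3 and to 38.2, 48.7 and 35.9 RPKM in KO1 to KO3. The cytosolic members (Acot1, Acot7 and Acot12) summed to 56.3, 65.7 and 60.5 RPKM in WT1 to WT3 and to 51.7, 42.4 and 34.4 RPKM in KO1 to KO3. The peroxisomal members (Acot3, Acot4, Acot6 and Acot8) summed to 6.63, 92.6 and 17.7 RPKM in WT1 to WT3 and to 11.4, 11.1 and 7.66 RPKM in KO1 to KO3, with WT1 the lowest of all. The 5 members outside the cluster summed to 112 ± 1 RPKM in wild type and 90.6 ± 13.2 RPKM in Atp7b-/- liver (SD, n = 3 each), without overlap. These sums lie beside the lower hepatocyte marker sum given above, whose part in them was not tested.

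**Figure D5:**
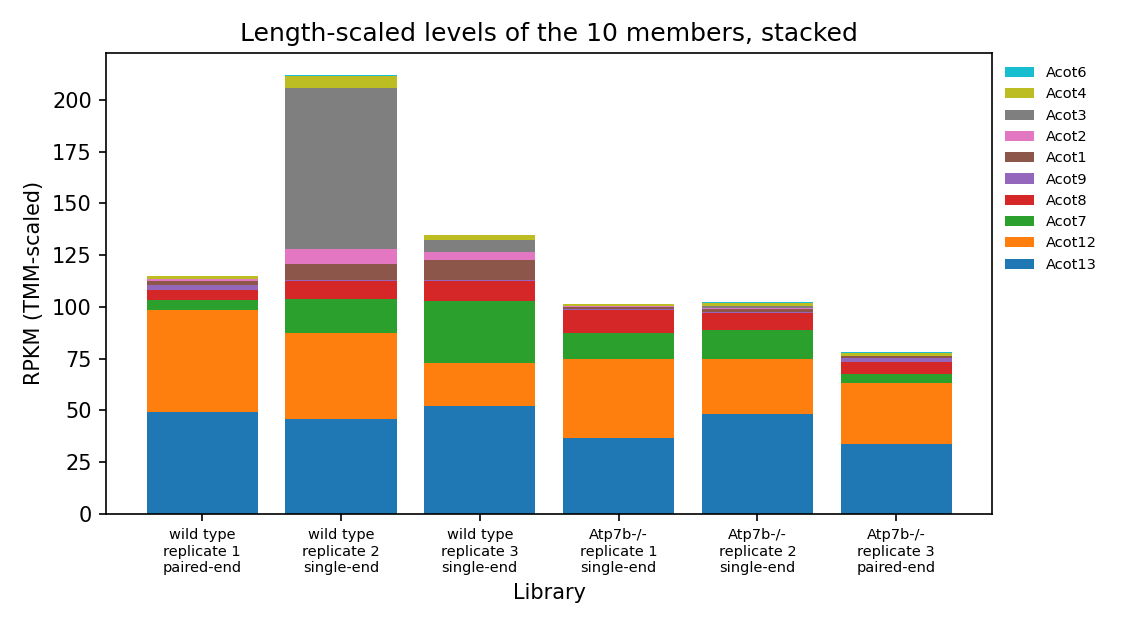
RPKM of the 10 members stacked for each library, so that bar height is the summed level. Acot13 and Acot12 fill most of each bar except that of WT2, where Acot3 makes up 36.6% of 212 RPKM.

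No list of acyl-CoA enzymes outside the family held a gene that passed edgeR's test; the counts at an unadjusted p and by DESeq2 follow list by list. Of the 133 tested genes in 12 lists outside the family, which also cover PPAR alpha, fasting, clock and sex-biased genes, 2 were called by edgeR, both lower (1.5%, beside 2.49% of all genes), and 20 (15%) had an unadjusted p under 0.05, beside 14.5% of all genes. The other thioesterases (6 tested, such as the lysosomal palmitoyl-protein thioesterase Ppt1 and the bile acid conjugating enzyme Baat) had a median log2 difference of -0.03, and 0 were called by edgeR, by DESeq2 or at an unadjusted p under 0.05. Their least p belonged to Ppt1, at -0.15 (SE 0.18, edgeR adjusted p = 0.77). Of 17 acyl-CoA synthetases, which run the opposite reaction, 0 were called by edgeR, with 3 at an unadjusted p under 0.05 and 2 called by DESeq2. Slc27a2, the very long-chain synthetase and fatty acid transporter, was at 1150, 1019 and 982 CPM in wild type libraries, against 578, 617 and 568 CPM in the Atp7b-/- ones. The groups stood apart, at a log2 difference of -0.83 (SE 0.20, edgeR adjusted p = 0.0672). Acsl1, the main long-chain synthetase of liver, had a log2 difference of -0.61 (SE 0.19, edgeR adjusted p = 0.171).

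Genes that make, break or move coenzyme A, the second product of the thioesterases, had negative differences in 10 of 11, with 0 called by edgeR, 2 at an unadjusted p under 0.05 and 1 called by DESeq2. Nudt19, a peroxisomal CoA hydrolase, had -0.70 (SE 0.22, edgeR adjusted p = 0.16) and Pank1, a kinase of the first step of CoA synthesis, -0.64 (SE 0.20, edgeR adjusted p = 0.164). Of 18 genes of mitochondrial beta-oxidation 0 were called by edgeR or DESeq2 or had an unadjusted p under 0.05, and Cpt1a, which admits long-chain acyl groups to the matrix, was at -0.48 (SE 0.23). Of 17 peroxisomal oxidation genes 0 were called by edgeR, 1 by DESeq2, and 1 had an unadjusted p under 0.05, the thiolase Acaa1b at -0.88 (SE 0.26, edgeR adjusted p = 0.143).

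Omega oxidation, which starts at the far end of the fatty acid, had the lowest median of the metabolic lists, -1.09 over 5 genes, with 0 called by edgeR, 2 at an unadjusted p under 0.05 and 1 called by DESeq2. Aldh3a2, the fatty aldehyde dehydrogenase, had -1.09 (SE 0.23, edgeR adjusted p = 0.0503). Cyp4a14, a fatty acid omega-hydroxylase and PPAR alpha target, measured 4.89, 663 and 477 CPM in WT1 to WT3 and 37.8, 56.1 and 4.61 CPM in KO1 to KO3. As with Acot1, the single-end wild type libraries were the high ones, but WT1 lay at the level of KO3. Its log2 difference was -2.60 (SE 0.91, edgeR adjusted p = 0.309).

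Among PPAR alpha and its partners 1 of 11 was called. Ppargc1b, a coactivator of fatty acid oxidation genes, fell from 6.08, 39.8 and 41.3 CPM in WT1 to WT3 to 17.5, 19.2 and 1.72 CPM in KO1 to KO3. The layouts differed widely, and within each the Atp7b-/- libraries were lower, at a log2 difference of -1.35 (SE 0.22, edgeR adjusted p = 0.0129). Ppara itself was at -0.40 (SE 0.21, edgeR adjusted p = 0.439) and its partner Rxra at -0.57 (SE 0.21, edgeR adjusted p = 0.245). Of 14 other PPAR alpha targets 0 were called by edgeR, with 6 at an unadjusted p under 0.05 and 5 called by DESeq2. They did not share a direction: Pdk4, the kinase that holds back pyruvate oxidation, was at 1.69 (SE 0.42, edgeR adjusted p = 0.0818), and Fads2, a desaturase, at -0.82 (SE 0.22, edgeR adjusted p = 0.0998). Of 8 fasting genes 0 were called by edgeR, 1 by DESeq2, and 1 had an unadjusted p under 0.05, the serine dehydratase Sds, at -1.75 (SE 0.62, edgeR adjusted p = 0.296).

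Of 17 clock genes 1 was called. Hlf, a factor that binds D-boxes, fell from 67.5, 66.3 and 71.2 CPM in WT1 to WT3 to 38.2, 40.0 and 31.0 CPM in KO1 to KO3, at a log2 difference of -0.92 (SE 0.18, edgeR adjusted p = 0.0323). Other clock genes differed between libraries of 1 genotype. Arntl, the core activator, measured 3.24, 0.935 and 0.371 CPM in WT1 to WT3 and 10.8, 0.281 and 43.2 CPM in KO1 to KO3. Per3, which peaks in the opposite phase, measured 41.1, 88.1 and 69.5 CPM in wild type libraries, against 13.2, 48.8 and 1.79 CPM in the Atp7b-/- ones. KO1 and KO3 thus had more Arntl and less Per3 than the other 4. The labels give neither the hour of killing nor the feeding state, and their part in the Acot values was not tested.

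Genes with the pattern most like Acot1 and Acot2 were sought by Pearson's r of log2 CPM, centred within each layout, over the 6 libraries and 11849 genes. For Acot1 these were the xenobiotic receptor Ahr (r = 0.9995), the exchange factor Arhgef11 (0.9994) and Pitpnm2 (0.9992), a phosphatidylinositol transfer protein. For Acot2 they were Cmip (0.9975), Akap8l (0.9951) and the targeted gene Atp7b (0.9951). The r values rest on only 6 libraries, centred in 2 layouts. Of the 11849 genes, 233 had r above 0.95 with Acot1 and 154 with Acot2. How many came near the highest values is not given here. Acot1 and Acot2 themselves correlated at 0.9424. These correlations describe libraries that share genotype and are not tested. Ahr measured 60.5, 51.0 and 54.3 CPM in wild type libraries, against 26.0, 31.0 and 44.8 CPM in the Atp7b-/- ones, a smaller difference than that of Acot1.

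Family genes outside the members were scarce or overlapped between genotypes. Acot5 had 4 counts in WT2 and 0 in the other 5 libraries, and Acot10, a near copy of Acot9, had 1 count in each of WT3 and KO3. Acot11, a type II enzyme known from brown fat, measured 10.6, 22.3 and 30.2 CPM in WT1 to WT3 and 19.8, 19.2 and 17.4 CPM in KO1 to KO3, at a log2 difference of -0.04 (SE 0.27, edgeR adjusted p = 0.972). Of its 54-base windows 17% were shared with Fam151a. Among markers of other cells, the 5 adipocyte genes summed to 28.0 CPM in WT1 and 20.8 in KO3 against at most 0.927 in the single-end libraries, and the 4 muscle genes to 48.6 CPM in WT1 against at most 0.758 elsewhere. The adipocyte gene Plin1 and the muscle gene Acta1 were at 0 in the single-end libraries WT2, WT3 and KO2. In KO1, also single-end, Plin1 had 1 count and Acta1 had 0. Erythroid markers (4 genes such as Alas2) summed to 217, 48.7 and 129 CPM in WT1 to WT3 and to 305, 220 and 315 CPM in KO1 to KO3. WT1 and KO2 were nearly level. Alas2, the largest of the 4, overlapped between genotypes, at 191 CPM in WT1 and 184 CPM in KO2. Of the 3 erythroid genes tested, 0 were called by edgeR or DESeq2, and 1 had an unadjusted p under 0.05 in edgeR's test. Cholangiocyte markers (7 genes such as Sox9) summed to 42.6 to 61.1 CPM in wild type libraries and 59.9 to 97.7 CPM in Atp7b-/- libraries, and Kupffer cell markers (7 genes such as Clec4f) to 130 to 268 and 143 to 203 CPM. The part of these cells in the Acot values was not tested.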

How the data were processed

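Unnormalised read counts, 1 value for each Ensembl gene in each of the 6 libraries, were deposited by the authors. The submitters' processing notes list STAR 2.4, featureCounts and edgeR 3.8, with build GRCm38. Annotation release, strand setting, treatment of reads with several matches and the counting of read pairs were not given in the sources used here. A table of differential expression named in the labels was not used here.

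From the counts, edgeR 4.0.16 in R 4.3.3 was run with TMM factors, its expression filter (minimum count 10; 12988 genes left) and a robust quasi-likelihood fit of layout and genotype. P-values were adjusted by Benjamini-Hochberg over all genes tested, and a call is an adjusted p under 0.05. The SE is the log2 difference divided by the root of the test's F. CPM and RPKM use TMM-scaled library sizes and GENCODE M21 exon lengths. Log2 CPM for the pattern search used a prior count of 2. Symbols were found for 40254 of 41388 identifiers. DESeq2 1.42.0 and limma-voom (limma 3.58.1) were alternatives. Coding and promoter sequences were aligned with Biopython 1.88.

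The members and the lists were chosen with earlier results of these data known. Named were all members, up to 4 genes of each list with the smallest p (fewer are printed), 3 pattern-like genes for Acot1 and for Acot2, Atp7b and the genes of the sex check. Acot5, Acot10, Acot11, Fam151a, Snx21, Sult2a1, Cpt1a, Ddx3y, Cyp2d9, Plin1, Acta1 and the antisense partner were named after their values were seen. Replicate numbers follow deposition order and pair nothing. Results on 2 genes are not reported here.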

Additional observations from a re-analysis of the deposited data

How the results depend on the processing

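The genotype contrast of the members selected the family, so its values under other settings describe the processing and are no support. The count of members past the threshold, 2 in the main edgeR fit, was 2 in each of the 6 fits that left out 1 library, 3 with DESeq2 (Acot3 added), 0 without the layout term and 0 with the labelled sex in place of layout. Without the layout term the log2 difference was -2.63 for Acot1 and -3.28 for Acot2, and with the labelled sex in its place -2.17 and -2.69. Those fits called 0 of all genes too, with 545 and 381 at an unadjusted p under 0.05. With the 5 cluster members summed into 1 feature, which WT2 dominates through Acot3, it was -2.85 and not past the threshold, against -2.52 for Acot1 and Acot2 summed. Leaving out 1 library moved Acot1 between -2.82 and -2.01, Acot2 between -3.42 and -2.54, Acot3 between -6.36 and -2.72, Acot4 between -2.08 and -0.64, Acot6 between -2.31 and -0.87, Acot7 between -0.77 and -0.22, Acot8 between 0.08 and 0.28, Acot9 between -0.58 and 0.22, Acot12 between -0.53 and 0.06 and Acot13 between -0.46 and -0.19. The fit without WT3 and KO3, in which 2 members were called, was chosen after seeing the data and leaves 1 residual degree of freedom. The count of called genes outside the family, 2 in the main fit, was 12 with DESeq2, 6 with limma-voom, 13 without the filter, 7 with layout and labelled sex together, 1 within single-end libraries, 0 without layout and 0 with labelled sex in its place. It ran from 1 to 7 when 1 library was left out: 1 without WT1, KO1 or KO3, and 7 without KO2. The cause of these shifts was not tested. Depth limits Acot2 and Acot6, which had as few as 7 and 5 counts in an Atp7b-/- library. No paired analysis was possible because the labels link no wild type library to an Atp7b-/- one.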
